A study of Homo sapiens with 9 samples.

Results

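SF3B1 binding sites were examined in the genes of the DEAD-box and DEAH-box helicases, leaving out 6 of them that are established parts of the spliceosome (DDX23, DDX42, DDX46, DHX8, DHX16 and DHX38). The members were the protein-coding genes whose symbol is DDX or DHX followed by a number. This gave 48 genes, 35 DDX and 13 DHX, of 20056 protein-coding genes, and they held 795 of the 96852 sites in the list. A site was counted when its centre lay in the RefSeq span of the gene (assembly GRCh38) and on its strand. The symbol rule keeps DDX39B, DDX41, DHX15 and DHX35, whose products are also known from spliceosomes, so the set is not free of splicing factors. Other members were not checked for this, and leaving out these 4 does not make the set free of splicing factors.

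The list came from K562 cells, an established human leukaemia line, in which RNA bound to protein was fixed with ultraviolet light and recovered with a monoclonal SF3B1 antibody (iCLIP). The labels attach it to 3 libraries of the parental line with both SF3B1 copies unmutated (SF3B1 wt/wt, obtained from Horizon Discovery). The header of the list speaks of reproducibility in either condition, so a contribution of the 2 libraries of the K700E/wt line to the selection of sites cannot be told apart. The series has 9 libraries in all. The 2 K700E/wt libraries (a heterozygous SF3B1 mutation) and the 4 U2AF2 iCLIP libraries were not analysed here. The labels describe the cells as of lymphoid origin, whereas K562 is generally known as a chronic myeloid leukaemia line. The list holds positions only, all 5 nt wide, with a score of 0 in every row. There is no value per replicate, so no spread between cultures and no test between groups could be given, and site numbers below are numbers of positions, not of molecules.

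SF3B1 is a core protein of the U2 small nuclear ribonucleoprotein, which selects the branch point of an intron before splicing. DEAD-box and DEAH-box proteins, named after a short run of amino acids in their ATP-binding core, use ATP to open short RNA duplexes or to move along RNA and strip proteins from it. Outside the spliceosome they serve ribosome assembly, mRNA export, translation, RNA decay and antiviral sensing. The sites described here lie in the RNA made from their genes. They say where SF3B1 touched these transcripts, not where the helicases bind.

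Of the 48 genes, 37 (77.1%) held at least 1 site (95% exact Clopper-Pearson interval 62.7% to 88.0%, for the number of genes only). Among all protein-coding genes counted by the same rule, 37.9% had at least 1 site. The 48 genes are the whole set given by the symbol rule and share 1 list. The interval thus measures no sampling spread and is no test against that share. At least 5 sites were found in 29 of the 48 genes, against 23.1% of all protein-coding genes, and at least 20 sites in 13 of the 48, against 7.2%. The median over all 48 genes was 8 sites, and over all protein-coding genes it was 0. Among genes with a site, the medians were 11 and 7 sites, and 0.432 and 0.199 sites per kb of gene span. The median span of genes with a site was 32.9 kb for the helicases and 36.1 kb for all protein-coding genes. No RNA abundance was available here, so the part of expression in these differences was not tested, and no test of the difference was made.

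**Figure D1:**
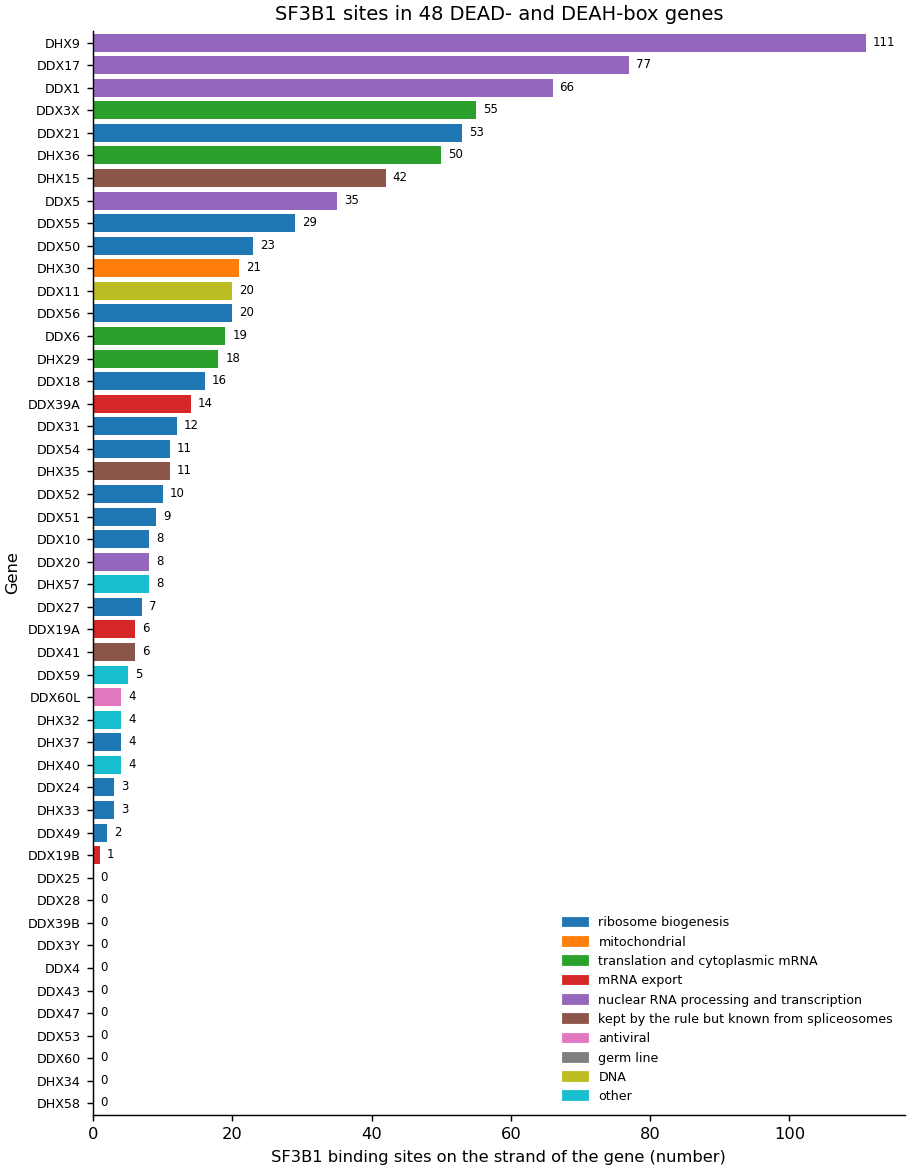
Number of SF3B1 sites on the strand of the gene for each of the 48 DEAD- and DEAH-box genes, ordered by number and coloured by the known role of the product; there are no error bars because the list has no replicate values. DHX9 had 111 sites, 37 genes had at least 1, and the 11 genes at the bottom had 0.

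The sites were concentrated in few genes. DHX9 alone held 14.0% of the 795 sites, the 3 genes with the most held 31.9%, and the 10 with the most held 68.1%. The 795 sites lay on the strand of their gene by the counting rule, and 0 further sites lay on the other strand. For DDX18, DDX49, DDX52 and DHX33 the strand was itself taken from the sites. Only 3 of the 795 sites also fell in the span of another protein-coding gene, 2 in DHX32 (within BCCIP) and 1 in DDX54 (within CFAP73). In DHX29, 17 of 18 sites also lay in the span of CCNO-DT, a long non-coding RNA gene annotated on the opposite strand.

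The genes for helicases of nuclear RNA processing and transcription had the most sites, 297 in 5 genes, and every one of the 5 had at least 8. They were DHX9, DDX17, DDX1, DDX5 and DDX20. Over their summed spans this was 2.26 sites per kb. The sum over all 48 genes was 0.407 sites per kb, and over all protein-coding genes 0.0728. Of all protein-coding genes 23.1% had at least 5 sites. The role groups were formed with earlier results of these data known, and no RNA abundance was available. A link between role and number of sites was not tested.

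DHX9 encodes RNA helicase A, which unwinds double-stranded RNA and RNA-DNA hybrids. It lies on the plus strand of chromosome 1 between 182839347 and 182887982. Its 111 sites placed it at rank 27 of all protein-coding genes by number, and its density was 2.28 sites per kb. They spread over 91.6% of the span, from 3.15 kb after the start to 0.953 kb before the end, and formed 65 clusters when sites at most 60 nt apart were joined. A stretch of 8.68 kb, from 3.94 to 12.6 kb after the start, held no site. The densest 1 kb began at 18.7 kb and held 17 sites.

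DDX17 and DDX5 encode the closely related p72 and p68 proteins, coregulators of transcription that also act with Drosha in microRNA maturation. DDX17, on the minus strand of chromosome 22 between 38483438 and 38506311, had 77 sites, or 3.37 per kb. Of these, 65 lay past the midpoint of the gene, and the densest 1 kb, from 16.8 kb after the start, held 19. The cluster with the most sites in any of the 48 genes was here, with 6 sites between 38490449 and 38490507. DDX5, on the minus strand of chromosome 17 between 64498254 and 64506866, had 35 sites in a span of only 8.61 kb. Its 4.06 sites per kb were the highest density of the 29 genes with at least 5 sites, and placed it at rank 41 among all protein-coding genes with at least 5. As in DDX17, most sites lay past the midpoint, 33 of 35, and 17 of them in 1 kb from 5.28 kb after the start.

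That stretch of DDX5 contains 2 of the 5 microRNA genes that lie inside helicase genes, MIR5047 and MIR3064, whose hairpins begin 5.55 and 6.03 kb after the start of DDX5. The others are MIR7106 in DDX54, MIR1226 in DHX30 and MIR378J in DDX52. The hairpins are shown because they are the stretches of these transcripts where site and sequence could be set side by side. The 3 found in RefSeq (GRCh38.p14) are written 5′ to 3′, with the bases covered by an SF3B1 site in capitals.
MIR3064, in DDX5, chr17:64500774-64500839, minus strand: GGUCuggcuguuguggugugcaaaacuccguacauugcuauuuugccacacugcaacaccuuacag
MIR7106, in DDX54, chr12:113159113-113159177, minus strand: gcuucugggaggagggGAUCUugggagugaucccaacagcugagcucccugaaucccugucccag
MIR1226, in DHX30, chr3:47849555-47849629, plus strand: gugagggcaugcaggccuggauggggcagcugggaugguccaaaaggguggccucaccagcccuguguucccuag
The site in MIR3064 covered the first 4 bases of the hairpin and 1 base before it, and its centre lay 64 nt before the last base. The site in MIR7106, the one that also falls in the span of CFAP73, covered bases 17 to 21 of 65, and its centre lay 46 nt before the last base. MIR5047 held 2 whole sites, with centres 58 and 40 nt before its last base. No site touched MIR1226 or MIR378J. The site nearest to MIR1226 covered 47849394 to 47849398 on chromosome 3, upstream of the hairpin. The site in MIR7106 lay within the mature miR-7106-5p, and that in MIR3064 touched the start of miR-3064-5p, while both sites of MIR5047 lay upstream of its mature sequence. The mature sequences from RefSeq are given with the seed, bases 2 to 8, in capitals.
hsa-miR-7106-5p: uGGGAGGAggggaucuuggg
hsa-miR-3064-5p: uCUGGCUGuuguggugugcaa
hsa-miR-5047: uUGCAGCUgcgguuguaaggu
Their seeds differ from each other. Across the list, 37 of 1558 hairpins (2.37%) were touched by a site on their strand.

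DDX1, whose product works with the tRNA ligase complex, lies on chromosome 2 between 15591868 and 15631101, plus strand, and had 66 sites. The first lay 551 nt after the start, nearer than in any other of the 48 genes, the last 0.341 kb before the end, and 26 of them lay in the last 10% of the span. The densest 1 kb, from 36.5 kb after the start, held 15 sites. DDX20 encodes Gemin3 of the SMN complex, which assembles small nuclear ribonucleoproteins. It had 8 sites, each more than 60 nt from the next, and so 8 single-site clusters.

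**Figure D2:**
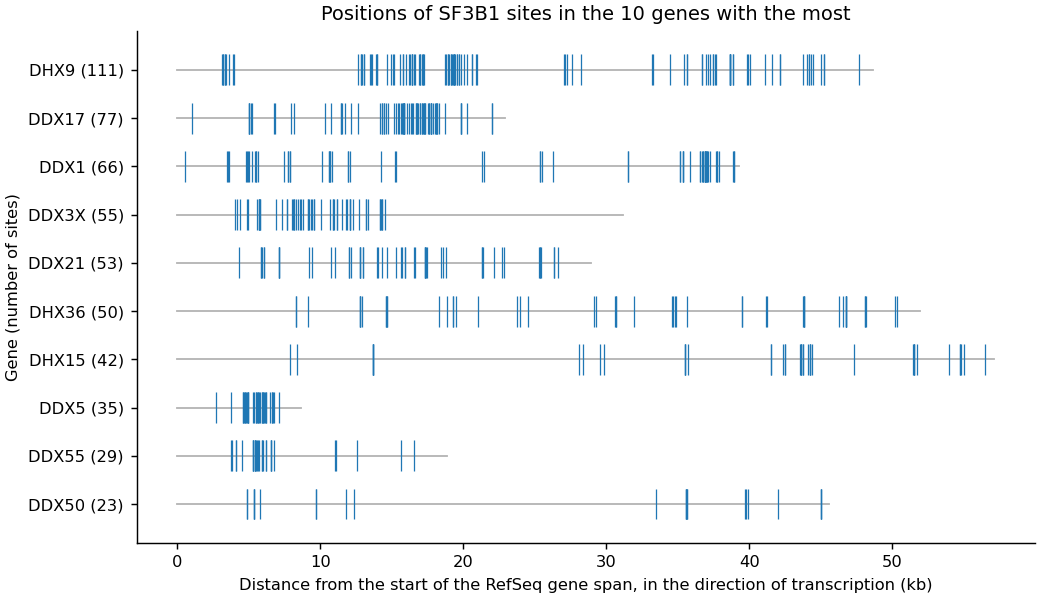
Positions of SF3B1 sites (vertical lines) along the RefSeq spans (grey lines) of the 10 genes with the most sites, in kb from the start of the gene in the direction of transcription; numbers of sites are in brackets. The 65 sites of DDX17 and 33 of DDX5 past the midpoint stand against DDX3X, whose 55 sites all lie before it.

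The genes of translation and cytoplasmic mRNA held 142 sites in 6 genes, 4 of which had a site, against 37.9% of all protein-coding genes. DDX3X, whose product promotes translation of mRNAs with structured leaders, lies on chromosome X between 41333308 and 41364472, plus strand, and had 55 sites. All 55 lay before the midpoint, from 4.05 kb after the start, and the last 16.6 kb of the span held 0. The largest gap between neighbouring sites in the occupied stretch was 1.11 kb. RefSeq spans are the outermost limits over all transcripts, so a span can reach past the transcript used in these cells. DHX36, which resolves four-stranded guanine structures, had 50 sites spread over 81.0% of its span on chromosome 3, with no 1 kb stretch holding more than 6. DDX6, a repressor found in P-bodies, had 19 sites, and DHX29, which helps ribosomes scan structured leaders, had 18.

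Of the 16 genes for ribosome biogenesis, 15 had a site and 11 had at least 5, against 37.9% and 23.1% of all protein-coding genes. Together the 16 genes held 210 sites with a median of 9.5. DDX21, a nucleolar helicase that acts on ribosomal RNA synthesis and processing, had 53 sites on chromosome 10 between 68956170 and 68985068, with 24 before the midpoint and 29 after it. Its paralogue DDX50 lies next to it on the same strand, between 68901315 and 68946847, and had 23 sites in a longer span, 0.505 against 1.83 sites per kb. DDX50 had 21.1 kb between 1 pair of neighbouring sites, and in DDX21 the largest such gap was 2.51 kb. DDX55 lies on chromosome 12, plus strand, and had 29 sites, of which 15 lay within 1 kb from 5.28 kb after the start and 24 before the midpoint. DDX56 had 20 sites in 8.11 kb, a density of 2.47 per kb that was the third highest among the 29 genes with at least 5 sites. DDX18 had 16 sites, DDX31 12, DDX54 11, DDX52 10, DDX51 9, DDX10 8 and DDX27 7. DDX10 was the longest gene of the set, 275.9 kb, and contained a stretch of 136.3 kb without a site. DHX37 had 4 sites, DDX24 and DHX33 3 each, and DDX49 2.

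The genes DHX15, DHX35 and DDX41, named above as known from spliceosomes, held 59 sites. DHX15, which takes apart spliceosomes after the intron has been released, had 42 of them on the minus strand of chromosome 4 between 24527475 and 24584554. Of these, 34 lay past the midpoint, and a stretch of 14.4 kb, from 13.7 to 28.1 kb after the start, held none. DHX35 had 11 sites. DDX41, in which inherited mutations predispose to myeloid neoplasms, had 6 sites in a span of 5.39 kb, or 1.11 per kb.

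Among the 5 genes for mRNA export, 3 had a site, against 37.9% of all protein-coding genes. DDX39A, whose product loads export factors onto mRNA, had 14 sites, all past the midpoint of the gene and 8 of them within 1 kb. Its paralogue DDX39B, which also helps the U2 particle to join the intron, had 0 sites in a span of 11.8 kb on chromosome 6. DDX19A and DDX19B, neighbouring genes for helicases that release mRNA at the nuclear pore, had 6 and 1 sites. The products of both pairs are closely related, and how reads that fit more than one copy were treated was not given in the sources used here. DDX25, a gene known for expression in the testis, had 0 sites.

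The remaining groups were small. DHX30, a helicase of mitochondrial RNA granules, had 21 sites and a density of 0.446 per kb. DDX11, a DNA helicase of sister chromatid cohesion, had 20 sites, none in the first 15.2 kb. A site was found in all 4 genes placed in no other group, against 37.9% of all protein-coding genes. DHX57 had 8 sites, DDX59 5, and DHX32 and DHX40 4 each. In the antiviral group, DDX60L had 4 sites, while its neighbour DDX60 and the RIG-I-like receptor DHX58 had 0.

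**Figure D3:**
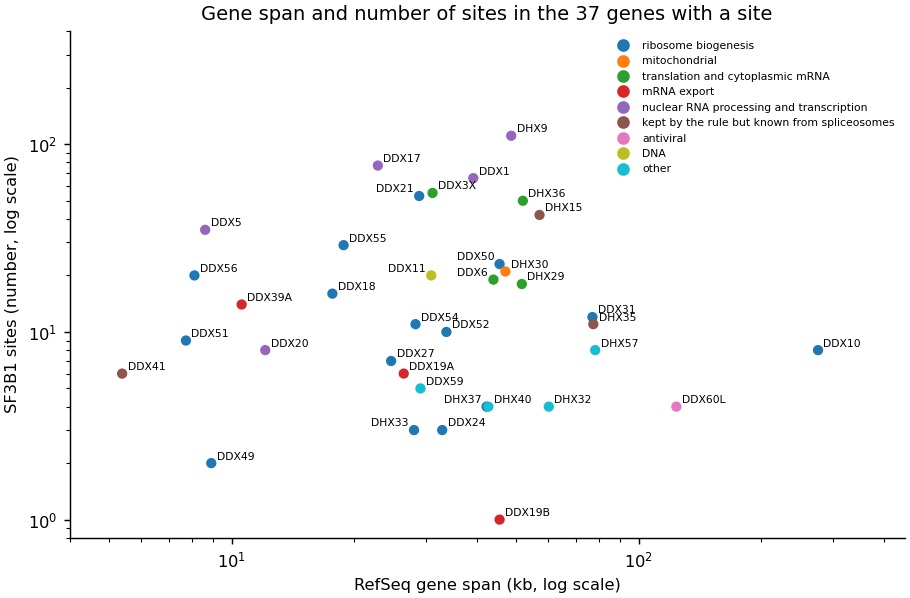
Span of the gene (horizontal, kb, log scale) and number of SF3B1 sites (vertical, log scale) for the 37 helicase genes with at least 1 site, coloured by role. The points show no rise with length: DDX5 had 35 sites in 8.61 kb and DDX10 had 8 in 275.9 kb.

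The number of sites did not follow the length of the gene among the 37 genes with a site (Spearman's rho -0.0028, as a description across genes, which share one list). Across all 7609 protein-coding genes with a site it was 0.23. With genes without a site included, rho was 0.18 over the 48 helicase genes and 0.25 over all 20056 protein-coding genes. No difference in rho was tested. The densities of helicase genes with at least 5 sites ran from 0.029 per kb in DDX10 to 4.06 in DDX5.

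The 11 genes without a site were DDX3Y, DDX4, DDX25, DDX28, DDX39B, DDX43, DDX47, DDX53, DDX60, DHX34 and DHX58. They include all 3 germ line genes, DDX4, DDX43 and DDX53. Of all 20056 protein-coding genes, 12447 had no site, so this does not set the 3 apart. DDX28, a factor of mitochondrial ribosome assembly, and DDX53 are known to lack introns and were the shortest spans, 2.32 and 3.63 kb. DDX3Y lies on the Y chromosome, which carried no site in the list. DDX47 is the only ribosome biogenesis gene without a site, and only 3 sites of any strand lay within 500 kb of it. For DDX39B the nearest site was 80.7 kb away, and 121 sites lay within 200 kb. The nearest site to DHX58 was 2.15 kb away, and to DDX28 2.16 kb. Around the 11 genes the number of sites within 200 kb outside the gene had a median of 28, and around the 37 genes with a site it was 33. A gene without sites cannot be told here from one whose RNA was too scarce to give reproducible sites.

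Within genes, the sites lay in clusters. Joining sites at most 60 nt apart gave 485 clusters, of which 294 were single sites, 108 held 2 sites, 56 held 3, and 27 held 4 or more. Single sites made up 60.6% of clusters, against 63.2% in all protein-coding genes. Neighbouring sites lay a median of 128 nt apart (quartiles 26.3 and 593.5), against 157 nt over all protein-coding genes.

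In the full list, sites often lie in pairs a short distance apart, and this arrangement was looked for in the helicase genes. The distance windows, here and for the footprints below, were taken from earlier results on the whole list. That list includes these sites, so the numbers are a description without independent support. Pairs 25 to 45 nt apart numbered 179 and pairs 46 to 66 nt apart, a window of the same width, 67, a ratio of 2.67. Over all protein-coding genes the ratio was 3.59. The difference in ratio was not tested. The DHX members had 73 pairs at the shorter and 17 at the longer distance, and the DDX members had 106 and 50. In DDX5 the numbers were 8 and 11 and in DDX17 17 and 14, while DDX21 had 13 against 1, DHX36 17 against 3 and DHX9 26 against 7.

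A paired footprint was a cluster of exactly 2 groups of sites (joined within 12 nt) with 25 to 45 nt between the group means. The helicase genes had 90, in 24 genes, holding 236 sites, or 29.7% of all, against 28.6% over all protein-coding genes. DHX9 had 15 footprints, DHX36 9, and DDX3X, DDX17 and DDX21 7 each. In DHX36 the footprints held 27 of its 50 sites, and in DDX5 they held 11 of its 35. In DDX11, 20 sites gave no such footprint, and 0 of their pairs were 25 to 45 nt apart. The upstream group of the footprint held more sites in 29 cases, the downstream group in 11, and both the same number in 50. Over all protein-coding genes the numbers were 2265, 1739 and 6450.

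**Figure D4:**
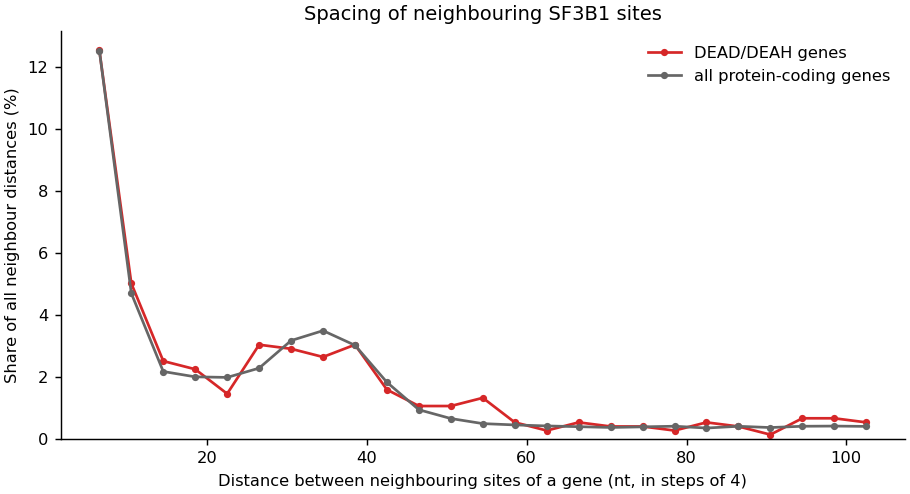
Share of neighbouring site pairs (vertical, %) by distance (horizontal, nt, in steps of 4) for the helicase genes (758 distances) and all protein-coding genes (86703). Both curves fall steeply from the shortest distances and rise again between 25 and 45 nt, where 13.7% and 14.1% of the distances lie.

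Along the gene, few sites lay near the start. The comparison of the first and last 10% was taken from earlier results on the whole list, which includes these sites, and is a description only. In the 29 genes with at least 5 sites, 21 of 770 sites fell in the first 10% of the span and 92 in the last 10%, a ratio of 4.38. Over all protein-coding genes with at least 5 sites the shares were 4.48% and 13.4%, a ratio of 2.99. The last 10% held more sites than the first in 15 of the 29 genes, fewer in 2 and as many in 12, the last all with 0 in both. Without DHX9, which had 9 of the 21 sites in the first 10%, the ratio was 6.83. With the first and last 20% the comparison turned round: the ratio was 1.99 in the helicase genes, from 76 and 151 sites, and 2.7 over all protein-coding genes, from 8821 and 23823 sites. No site lay in any of the 60 RefSeq promoter windows (250 bases before to 50 bases after a start) of the 43 helicase genes that have one. Over all protein-coding genes 0.797% of 22199 such windows held a site, so a count of 0 in 60 is not set apart from that share. In the helicase genes with a site, the median distance from the start to the first site was 6.42 kb.

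Between 20% and 40% of the span lay 211 of the 770 sites. From 20% to 30% lay 107 and from 30% to 40% 104, or 13.9% and 13.5%, against 7.25% and 9.03% over all protein-coding genes. DHX9 contributed 47 of the 211, DDX3X 34 and DDX55 23. Past the midpoint lay 54.7% of the sites, against 63.6% over all protein-coding genes. Without DDX3X the share was 58.9%, and without DDX17 it was 51.4%. More sites lay past the midpoint than before it in 16 of the 29 genes and fewer in 12. None of these differences from all genes was tested.

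**Figure D5:**
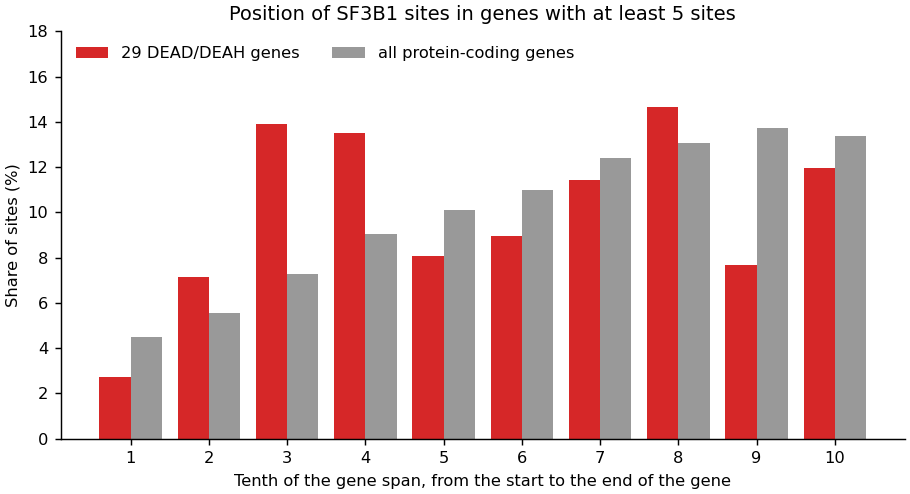
Share of sites (vertical, %) in successive steps of 10% of the gene span from start to end (horizontal), for 29 helicase genes with at least 5 sites (770 sites) and all protein-coding genes with at least 5 (87821 sites). The helicase genes have 13.9% and 13.5% of their sites from 20% to 30% and from 30% to 40% of the span, against 7.25% and 9.03%.

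The 6 spliceosomal helicase genes left out by the rule were set beside the others. All 6 had a site, with 133 sites in total, a median of 17 and 0.554 sites per kb of summed span, against a median of 8 and 0.407 in the 48 genes. DDX42 had 46 sites, DDX46 44, DDX23 22, DHX16 12, DHX38 7 and DHX8 2. None of them reached the 50 sites found in 6 of the 48 genes. Of all protein-coding genes 1.35% had at least 50 sites, so this does not set the 6 spliceosomal genes apart. Of 7 genes for DEAD and DEAH proteins with other symbols, 5 had a site. EIF4A2, a translation initiation factor, had 35 sites in 6.32 kb, or 5.54 per kb, above the 4.06 of DDX5. Its paralogue EIF4A1 had 1 site in 6.18 kb, and EIF4A3 of the exon junction complex had 6. YTHDC2 had 42, DQX1 1, and RIGI and TDRD9 had 0. Among all protein-coding genes 37.9% had a site. These lists are small, and no difference between them was tested.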

How the data were processed

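SF3B1 iCLIP data of K562 cells were analysed from the 1 deposited list of binding sites. Per the file headers, the authors merged sites and kept those found again in every replicate of at least 1 condition. The submitters' processing notes name FastQC 0.11.8, STAR 2.7.3a and 2.6.1b, UMI-tools 1.0.0, bedtools 2.27.1 and the builds GRCh38.p10 and GRCh38.p12; the site caller is not given in the sources used here. The deposited score was 0 in every row, and read depth is unknown. Gene spans came from RefSeq GRCh38.p14. Strands came from RefSeq promoter windows, which 43 of the 48 members have; for DDX18, DDX49, DDX52 and DHX33 the strand with more sites was taken, and DHX58 had no site. Of 4016 genes with at least 5 sites and a listed strand, 3926 had most sites on it. Site positions are centres, in 1-based coordinates.

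Members, role groups and lists were chosen with earlier results of these data known. The distance windows and the parts of the gene span compared were taken from those earlier results. Described in detail were the 10 members with the most sites, the 5 densest with at least 5 sites, and all with 0. Counting was tested on simulated sites and checked by direct search for 54 genes. The planned position relative to introns was not analysed here, since no exon annotation was used. Computations ran in SciPy 1.17.1, pandas 2.3.3 and NumPy 2.4.6 under Python 3.11.15.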

Additional observations from a re-analysis of the deposited data

How the results depend on the processing

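Of 89 recalculations of 27 results, 88 stayed within 1.5 times the reported count or, for ratios, within its 95% exact binomial interval, and 1 did not; 47 came from the initial list of alternatives and the others were added after seeing the data. The exception was the ratio of sites in the last to the first part of the gene, which was 1.99 with parts of 20% in place of 10%. All protein-coding genes then had 2.7, so the helicase genes went from above all genes to below them. It was 6.83 without DHX9, within its wide interval. The binomial intervals treat sites, or pairs of sites, as independent, although many lie in the same gene. They thus measure no spread between genes. The 795 sites became 767 with touching sites merged, 719 with 1 site per region number of the list, 792 without sites in another protein-coding gene, and 736 without DDX39B, DDX41, DHX15 and DHX35. The same 10 genes had the most sites after both recounts. With at least 2 sites required, 36 of the 48 genes counted, against 32.5% of all protein-coding genes. The ratio of pairs lay between 2.49 and 2.67 with sites merged or reduced to 1 per region number, or with DHX9 left out. No other gene was left out for it. DDX5 had 8 pairs at the shorter and 11 at the longer distance, and DDX17 17 and 14. The part of these genes in the ratio was not tested. Several of the 89 recalculations could move few or no sites, so the 88 are a weak check of stability. Counting on either strand, or by the 5 prime end of the site, gave 795 sites again. Alternatives on introns were not run. Leaving out single replicates was not possible either. No paired analysis was possible because replicates were merged into 1 list of positions.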

Other observations

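The assembly lists 35 pseudogenes of the DDX and DHX families, and 0 of them contained a site on either strand. Of all 17088 pseudogenes in the assembly, 1.41% contained one, so a count of 0 is not set apart from that share. They include DDX12P, a near copy of DDX11 with a span of 30.5 kb on chromosome 12, beside the 20 sites of DDX11 itself, and DHX40P1 with a span of 26.4 kb, beside 4 sites in DHX40. Whether reads that fit both copies were left out is not given in the sources used here, and its part in these counts was not tested.

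DHX8 had 2 sites on its own strand and 5 on the opposite strand. It is named here after its values were seen; the other 5 spliceosomal helicase genes and all 48 members had 0 on the opposite strand.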
